A study of Canis lupus familiaris with 5 samples.

Results

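A set of 7 genes was followed in single-cell RNA sequencing of dog bone marrow: NPNT, FBLN1, LAMA4, DPEP1, AKAP12, ADGRF1 and TPM2. They are 7 of the 20257 features counted in each library, and they were chosen by their measured levels, since an earlier reading of these data found them high in pro-B-type cells. Their levels by cell gate are therefore given as a description and without a test. The study took femoral marrow from 3 healthy wild-type dogs, whose ages and breeds are not given in the labels. Unsorted cells gave 3 whole-marrow libraries, and viable CD34-positive cells sorted from marrows 2 and 3 gave 2 CD34-sorted libraries, so the sorted and unsorted groups share dogs and no treatment was applied.

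Pro-B and pre-B cells are the marrow stages at which immunoglobulin genes are rearranged. They are known by the surrogate light chain (VPREB1), the terminal transferase DNTT, the recombinase genes RAG1 and RAG2, and the transcription factors EBF1 and PAX5. Such cells normally depend on stromal cells and on the matrix these lay down. The first 3 genes encode secreted matrix proteins: nephronectin (NPNT) is a ligand of the integrin alpha 8 beta 1 in the mouse kidney, fibulin-1 (FBLN1) is a calcium-binding glycoprotein of basement membranes and elastic fibres, and LAMA4 is the laminin alpha 4 chain, which is secreted as a trimer with a beta and a gamma chain. DPEP1 is a membrane-anchored dipeptidase that cleaves leukotriene D4, and ADGRF1 is an adhesion G protein-coupled receptor. AKAP12 is a scaffold that tethers protein kinases A and C near the plasma membrane, and TPM2 is beta-tropomyosin, an actin-filament protein best known from muscle.

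The 5 libraries held 27953 barcodes and 279765200 UMIs (unique molecular identifiers, each marking 1 captured transcript), from 46114431 to 70169186 UMIs per library. Barcodes were dropped if they had fewer than 200 genes or more than 10% of UMIs from mitochondrial genes, which left 24708 cells. Kept cells were deeper in the sorted libraries (median 11622 and 14623 UMIs) than in whole marrow (2694 to 4344). The mitochondrial limit removed 22.8% of the barcodes of sorted library 2 and 16.5% of those of whole marrow 3. A total of 82 barcode sequences occurred in more than 1 library.

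Cells were gated on their own UMIs. A cell with at least 3 VPREB1 UMIs was called VPREB1-gated, and such a cell was non-cycling with no UMI of MKI67 and TOP2A and cycling with at least 2. There were 4347 VPREB1-gated cells: whole marrows 1 to 3 held 224, 62 and 277 of them, and the sorted libraries 2173 and 1611. Levels are CPM, the UMIs of a gene per 1000000 UMIs summed over the cells of a gate in 1 library. The markers differed between libraries. Non-cycling VPREB1-gated cells of sorted libraries 1 and 2 held DNTT at 2433 and 2599 CPM, PAX5 at 603 and 364 CPM, and CD34 at 629 and 336 CPM. Those of whole marrow 3 held less DNTT (556 CPM) and CD34 (87.3 CPM) and more PAX5 (2388 CPM), and 256 of its 277 VPREB1-gated cells had no CD34 UMI, so the pro-B name fits that library least and the cells are called by their gate. CD79A stood at 5745 to 11874 CPM in non-cycling and cycling VPREB1, MPO and GATA1 gates alike, and that row was not used as a B-lineage marker.

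The secreted matrix genes were present in VPREB1-gated cells of every library. NPNT in non-cycling VPREB1-gated cells was 174, 113 and 54.9 CPM in whole marrows 1 to 3, and 122 and 178 CPM after the sort. FBLN1 was 241, 72.1 and 12.5 CPM in whole marrow and 110.5 and 147 CPM after the sort. LAMA4 was 235, 144 and 57.4 CPM in whole marrow and 105 and 161 CPM after the sort. For all 3 genes whole marrow 3 was the lowest library, whole marrow 1 was above whole marrow 2, and the sorted and unsorted values overlapped. The whole-marrow 2 values rest on 31 cells, with 11 NPNT, 7 FBLN1 and 14 LAMA4 UMIs. The exact Poisson interval of its FBLN1 level ran from 29.0 to 149 CPM, and such intervals cover counting error only.

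The membrane genes showed the same low library. DPEP1 was 1021, 711 and 122 CPM in non-cycling VPREB1-gated cells of whole marrows 1 to 3, and 765 and 755 CPM after the sort. ADGRF1 was 257, 144 and 44.9 CPM in whole marrow and 89.5 and 89.2 CPM after the sort. The intracellular genes did not follow that order. AKAP12 was 3478.5, 1793 and 2565 CPM in whole marrow and 1145 and 1987 CPM after the sort, and TPM2 was 386, 289 and 704 CPM in whole marrow and 176 and 317 CPM after the sort. Whole marrow 3 thus held the highest TPM2 level and the second highest AKAP12 level while it held the lowest levels of the other 5 genes.

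**Figure D1:**
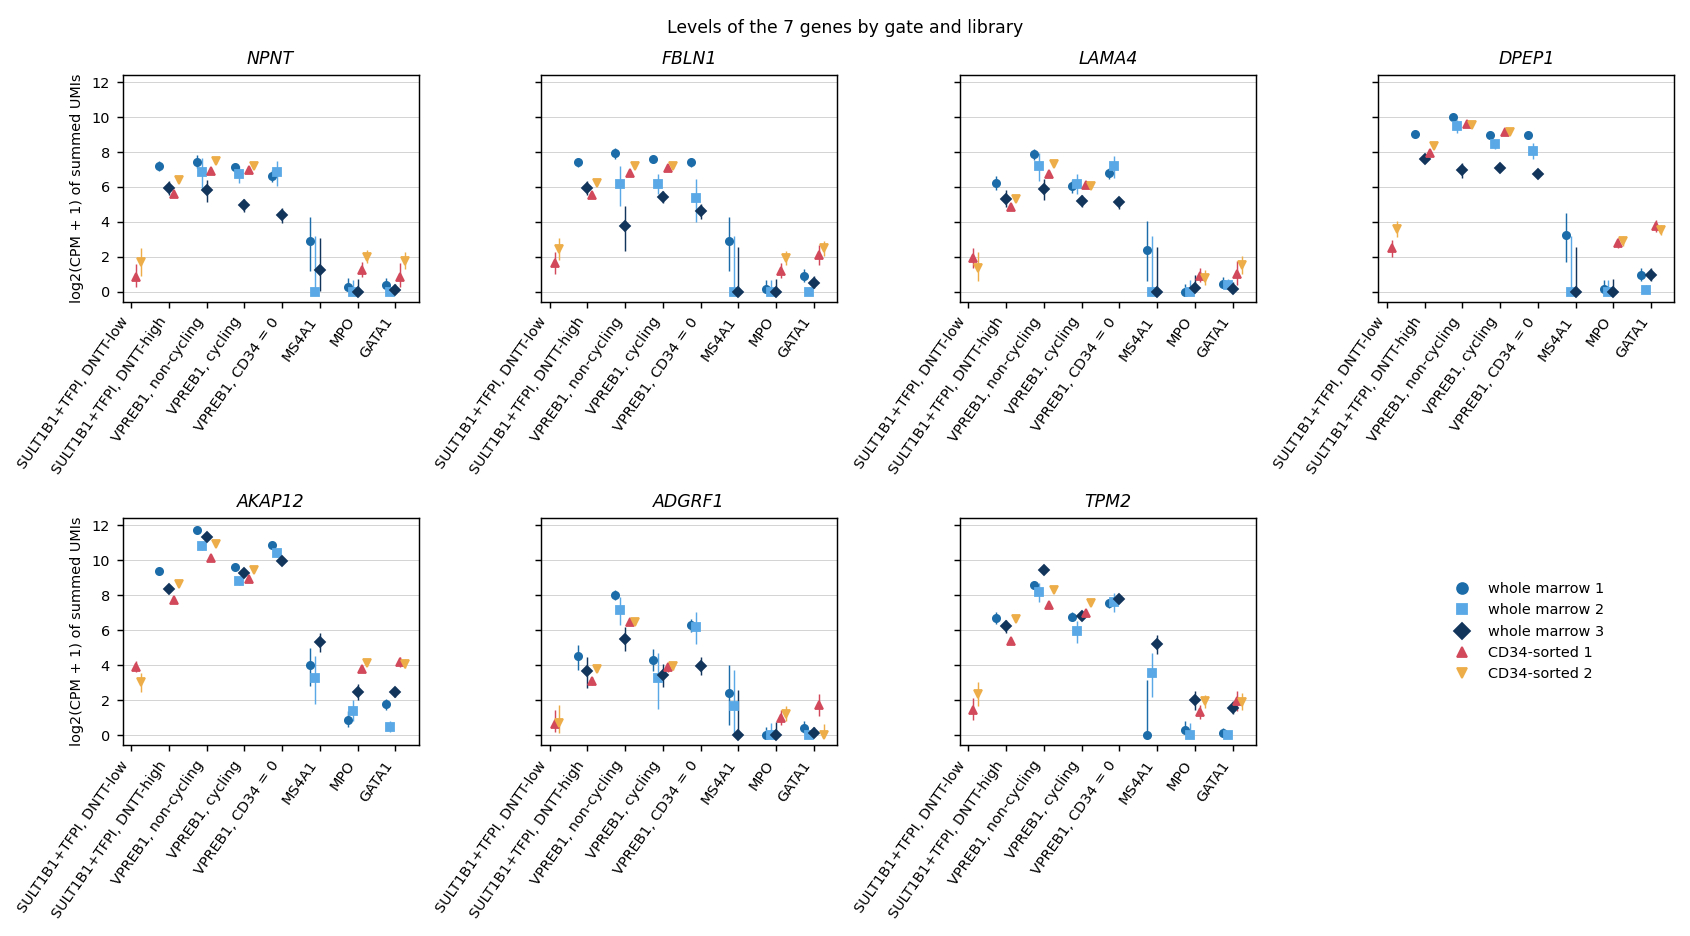
Level of each gene (log2 of CPM + 1, vertical axis) in each gate with at least 20 cells (horizontal axis), 1 point per library; bars are exact Poisson 95% intervals of the summed count. Levels are high in the VPREB1 gates and low in the MS4A1, MPO and GATA1 gates, and in the 3 VPREB1 gates whole marrow 3 (dark diamonds) lies below the other libraries for NPNT, FBLN1, LAMA4 and DPEP1. It does so for ADGRF1 except in cycling cells, and not in the DNTT-high gate. The DNTT-high gate includes cells that also pass the VPREB1 gate.

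The 7 genes were low in the erythroid and neutrophil gates. In GATA1-gated erythroid and megakaryocyte progenitors (at least 2 GATA1 UMIs) the level of every gene was at most 17.1 CPM, while in MPO-high neutrophil progenitors (MPO at 0.1% of UMIs or more) it was at most 16.7 CPM. Cells of at least 2000 UMIs were also thinned to 2000 UMIs each, and shallower cells were left out. In sorted libraries 1 and 2 this kept 858 of 1326 and 543 of 622 non-cycling VPREB1-gated cells. DPEP1 was then detected in 74.8% and 78.1% of these, against 1.5% and 1.2% of GATA1-gated cells of the same libraries. NPNT was detected in 26.7% and 37.4% of the VPREB1-gated cells and in 0 and 0.3% of the GATA1-gated cells at the same depth. Without thinning, the shares for DPEP1 were 83.0% and 88.4% against 8.21% and 7.6%.

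In the sorted libraries almost all UMIs of the 7 genes lay in VPREB1-gated cells. Their share ran from 96.8% (DPEP1, sorted library 2) to 98.8% (LAMA4, sorted library 1), although these cells were 46.0% and 42.8% of the kept cells. In whole marrow the genes parted. DPEP1 had 98.1%, 96.9% and 97.1% of its UMIs in VPREB1-gated cells of marrows 1 to 3, and NPNT had 96.5%, 96.7% and 95.1%. AKAP12 had 90.2%, 73.7% and 61.5%, and TPM2 had 74.9%, 26.6% and 52.4%. The other 3 genes lay in between or varied by library: FBLN1 had 96.8%, 82.6% and 85.9%, LAMA4 had 94.7%, 72.3% and 85.4%, and ADGRF1 had 93.0%, 81.0% and 68.5%. Marrow 2 was thus the lowest of the 3 for FBLN1, LAMA4 and TPM2, and marrow 3 for AKAP12 and ADGRF1. Cells with 1 or 2 VPREB1 UMIs held 23.8% of the AKAP12 and 26.0% of the TPM2 UMIs of whole marrow 3, but 0.98% of its DPEP1 UMIs and none of its 81 NPNT UMIs.

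**Figure D2:**
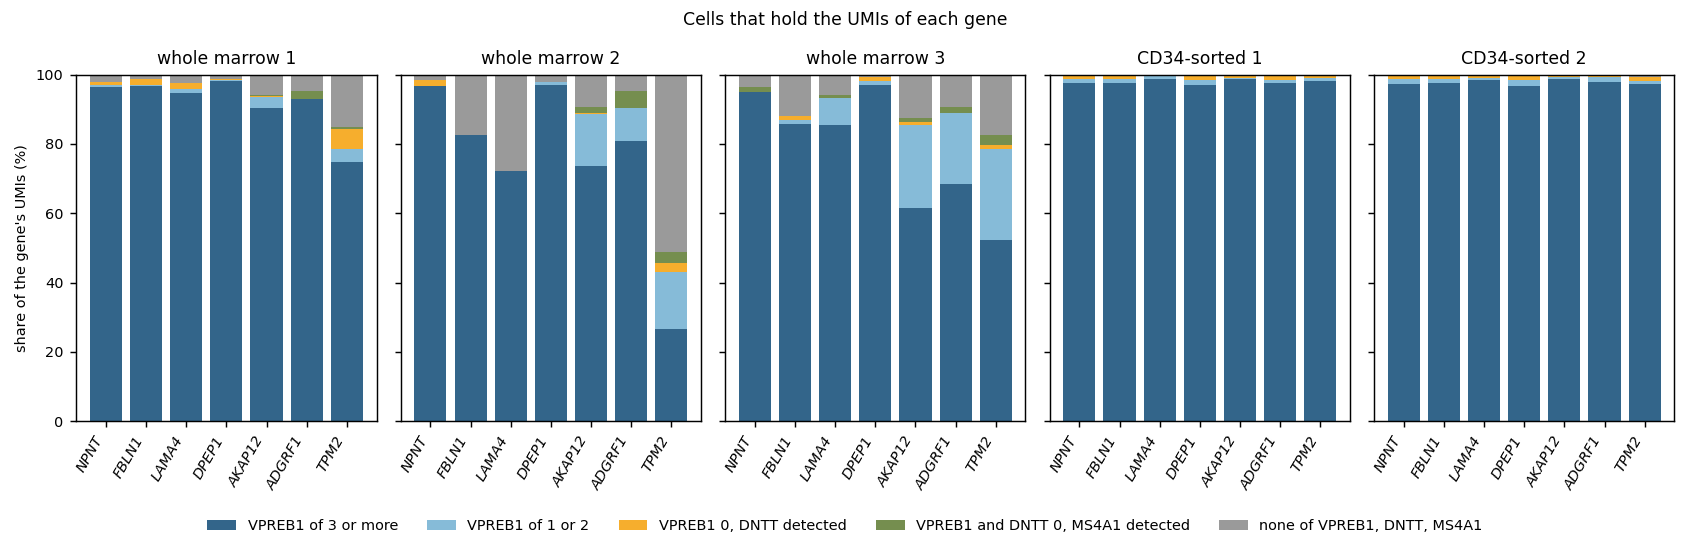
Share of each gene's UMIs (percent, vertical axis) held by 5 exclusive classes of cells, for each gene (horizontal axis) and library (panels). Sorted libraries are filled by VPREB1-gated cells, while in whole marrow part of FBLN1, LAMA4, AKAP12, ADGRF1 and TPM2 lies in cells with 1 or 2 VPREB1 UMIs or with none.

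The genes also differed beside the gate's threshold. In whole marrow 3 the 64 cells with exactly 3 VPREB1 UMIs held AKAP12 at 1678 CPM and TPM2 at 425 CPM, and the 84 cells with exactly 2 held AKAP12 at 1322 CPM and TPM2 at 383 CPM. NPNT was at 0 in both groups, DPEP1 was at 0 and 6.39 CPM, and FBLN1 was at 0 and 3.19 CPM. LAMA4 was low but present, at 17.9 and 15.97 CPM, as was ADGRF1, at 22.4 and 12.8 CPM. The cells with 2 VPREB1 UMIs also held PAX5 at 1412 CPM, VPREB3 at 949 CPM and CD34 at 9.58 CPM. In sorted libraries 1 and 2 the cells at the threshold looked different: with exactly 3 VPREB1 UMIs they held AKAP12 at 20.4 and 9.09 CPM and DPEP1 at 35.6 and 23.6 CPM, at a median of 17566 and 22545 UMIs per cell. With 6 or more VPREB1 UMIs AKAP12 was 798 and 1040 CPM and DPEP1 was 676 and 667 CPM in these libraries. The same number of VPREB1 UMIs therefore marked shallow cells rich in AKAP12 in whole marrow 3 and deep cells with little of any of the 7 genes after the sort. In whole marrow 1 the 11 cells with exactly 3 VPREB1 UMIs held AKAP12 at 2546 CPM and DPEP1 at 48.0 CPM, with no NPNT, FBLN1, LAMA4 or ADGRF1 UMI.

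In MS4A1-gated B cells (at least 2 MS4A1 UMIs) 5 of the 7 genes stood at 8.46 CPM or less in every whole-marrow library. AKAP12 was 14.8, 8.73 and 38.6 CPM in these cells of whole marrows 1 to 3, and TPM2 was 0, 10.9 and 35.9 CPM. In whole marrow 3, 19.6% of the 97 MS4A1-gated cells had an AKAP12 UMI and 15.5% a TPM2 UMI. Ordered by mean level, the non-cycling VPREB1 gate came first for NPNT, DPEP1, LAMA4, AKAP12, ADGRF1 and TPM2, and the cycling gate of the sorted libraries for FBLN1 (138 CPM, against 129 CPM in non-cycling cells, with overlapping values). Neighbours in the order overlapped for NPNT and FBLN1 through all VPREB1 and DNTT-high gates. The DNTT-high gate (at least 4 UMIs of SULT1B1 and TFPI together and at least 3 of DNTT) still held VPREB1-gated cells here. They were 48.7% and 55.4% of it in sorted libraries 1 and 2. Without them NPNT was 1.23 and 2.46 CPM and FBLN1 1.54 and 1.40 CPM in that gate of these libraries. AKAP12 separated first between VPREB1-gated cells without CD34 (982.5 CPM or more) and cycling cells (777 CPM or less).

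Pairs of the genes were also detected in the same cells. In sorted libraries 1 and 2, 858 and 543 non-cycling cells had at least 2000 UMIs and were thinned to that depth. On average 2.55 and 3.20 of the 7 genes were detected per thinned cell, and 68.3% and 80.8% of these cells had at least 2 of them. Without thinning the means were 3.23 and 3.92, over all 1326 and 622 cells. For each of the 21 pairs, the share of cells with the second gene was compared between cells with and without the first. It was higher in cells with the first gene for 19 pairs in sorted library 1 and 21 in sorted library 2. Depth before thinning was not held fixed in this measure. AKAP12 with TPM2 differed by 32.4 and 39.9 percentage points, AKAP12 with LAMA4 by 32.9 and 25.7, and AKAP12 with FBLN1 by 30.9 and 24.1. DPEP1 was the exception in sorted library 1, where its difference with TPM2 was -6.06 points and with AKAP12 -0.965 points, against 8.88 and 23.8 points in sorted library 2. Non-cycling cells of whole marrow 3 mostly held 1 or 2 of the genes. Their mean was 1.77 in 69 thinned cells, against 3.37 in 84 of whole marrow 1.

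**Figure D3:**
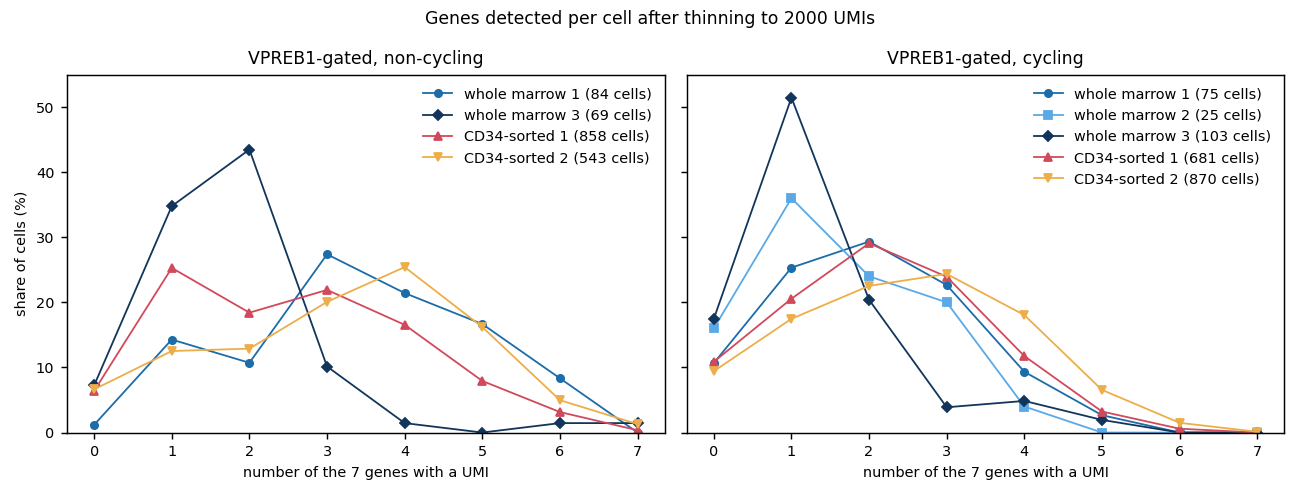
Share of VPREB1-gated cells (percent, vertical axis) with 0 to 7 of the genes detected (horizontal axis), for non-cycling and cycling cells of each library. Cells of at least 2000 UMIs were thinned to 2000, shallower cells were left out, and libraries with at least 20 thinned cells are shown. Among non-cycling cells whole marrow 3 peaks at 2 genes and sorted library 2 at 4 genes.

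The first test asked whether the 7 genes differ in non-cycling VPREB1-gated cells after the CD34 sort. UMIs were summed per library and tested over all features with edgeR's quasi-likelihood test and Benjamini-Hochberg adjustment. Of 4357 features tested, 1.63% were called, and of the 7 genes none was (691 features had an unadjusted p under 0.05, and DESeq2 also called none of the 7). The log2 differences ran from -0.74 ± 0.39 (SE) for TPM2 to 0.59 ± 0.43 for NPNT, with adjusted p from 0.41 to 0.97. FBLN1 had the widest error, 0.38 ± 0.78. With the dog as a block, which pairs sorted libraries 1 and 2 with marrows 2 and 3 in an order inferred from the library names and not stated outright, and leaves 1 residual degree of freedom, 3 genes were called higher after the sort, where 2.23% of features were called higher: FBLN1 by 2.43 ± 0.48 (adjusted p = 0.000108), DPEP1 by 1.52 ± 0.43 (adjusted p = 0.0278) and NPNT by 1.24 ± 0.38 (adjusted p = 0.0227). Whole marrow 1, the library with the highest FBLN1, has no sorted partner and so does not enter that estimate. When only cells with a CD34 UMI were used, which left whole marrow 1 as the single unsorted library, the FBLN1 difference was -1.38 and that of ADGRF1 -1.99. These values set both sorted libraries against 1 library of another dog, which the fit assumes to vary like the sorted ones, and no call is read from them. The FBLN1 difference was 2.52 without whole marrow 1 (adjusted p = 0.051) and -0.24 without whole marrow 3 (adjusted p = 0.87).

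The second test compared cycling with non-cycling VPREB1-gated cells within each of the 5 libraries, with the library as a block. The 2 sorted libraries come from marrows 2 and 3, so the 5 libraries are not 5 independent dogs. The fit does not model the shared dogs, and counts of libraries below include them. Of the 7 genes 5 were lower in cycling cells, where 19.1% of the 6711 features tested were called lower and 37.8% were called in either direction. In cycling cells ADGRF1 was 19.0, 8.61 and 9.65 CPM in whole marrows 1 to 3, then 13.7 and 14.2 CPM after the sort. It stood below the non-cycling level in 5 of 5 libraries and fell by 2.85 ± 0.18 on the log2 scale (adjusted p = 1.59e-09). AKAP12 in cycling cells was 777, 448 and 617 CPM in whole marrow, then 498 and 692 CPM after the sort. It fell by 1.71 ± 0.14 (adjusted p = 4.04e-08), and its cycling and non-cycling levels did not overlap over the 5 libraries.

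TPM2 fell by 1.38 ± 0.32 (adjusted p = 0.0177) and LAMA4 by 1.07 ± 0.17 (adjusted p = 8.96e-05), both lower in 5 of 5 libraries. DPEP1 fell by 0.51 ± 0.15 (adjusted p = 0.0165), lower in 4 of 5 libraries. NPNT (-0.21 ± 0.13, adjusted p = 0.21) and FBLN1 (0.14 ± 0.18, adjusted p = 0.58) did not pass the test. The TPM2 difference was not the same in sorted and whole-marrow libraries. The TPM2 log2 ratio was -1.82, -2.26 and -2.68 in whole marrows 1 to 3 but -0.46 and -0.78 after the sort. The interaction of cycling with the sort was 1.45 ± 0.21 (adjusted p = 0.000412, where 1.68% of features were called). These library groups also differed in depth per cell and in markers, and the part of either in the interaction was not tested. Without whole marrow 1, DPEP1 (adjusted p = 0.15) and TPM2 (adjusted p = 0.061) were no longer called, and without whole marrow 2 DPEP1 was not (adjusted p = 0.11). TPM2 also missed the threshold at 6 or more VPREB1 UMIs (adjusted p = 0.061), and DPEP1 in DESeq2 (adjusted p = 0.058) and without the library block (adjusted p = 0.48).

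Depth per cell moved with this contrast. Cycling cells had a median of 9404 to 12144 UMIs and non-cycling cells 1863 to 3072. Within non-cycling cells of sorted libraries 1 and 2, AKAP12 was 2727 and 3792 CPM in cells under 2000 UMIs, 2703 and 4333 CPM in cells from 2000 to under 5000 UMIs, and 187 and 381 CPM in cells of 5000 UMIs or more. TPM2 dropped from 413 and 697 CPM in the middle class to 27.0 and 54.3 CPM in the deepest, and LAMA4 from 224 and 327 CPM to 30.3 and 47.9 CPM. ADGRF1 was 317 CPM in the shallowest class of both libraries and 13.5 and 15.97 CPM in the deepest. DPEP1 changed least, from 997, 818 to 696 CPM with rising depth in sorted library 1 and from 789, 1094 to 538 CPM in sorted library 2. The deep non-cycling cells also held less VPREB1 (2611 and 2879 CPM against 10750 and 12560 CPM in the shallowest class), less PAX5 (186 and 149 CPM against 1367 and 774 CPM) and more CD34 (823 and 446 CPM against 386 and 325 CPM).

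**Figure D4:**
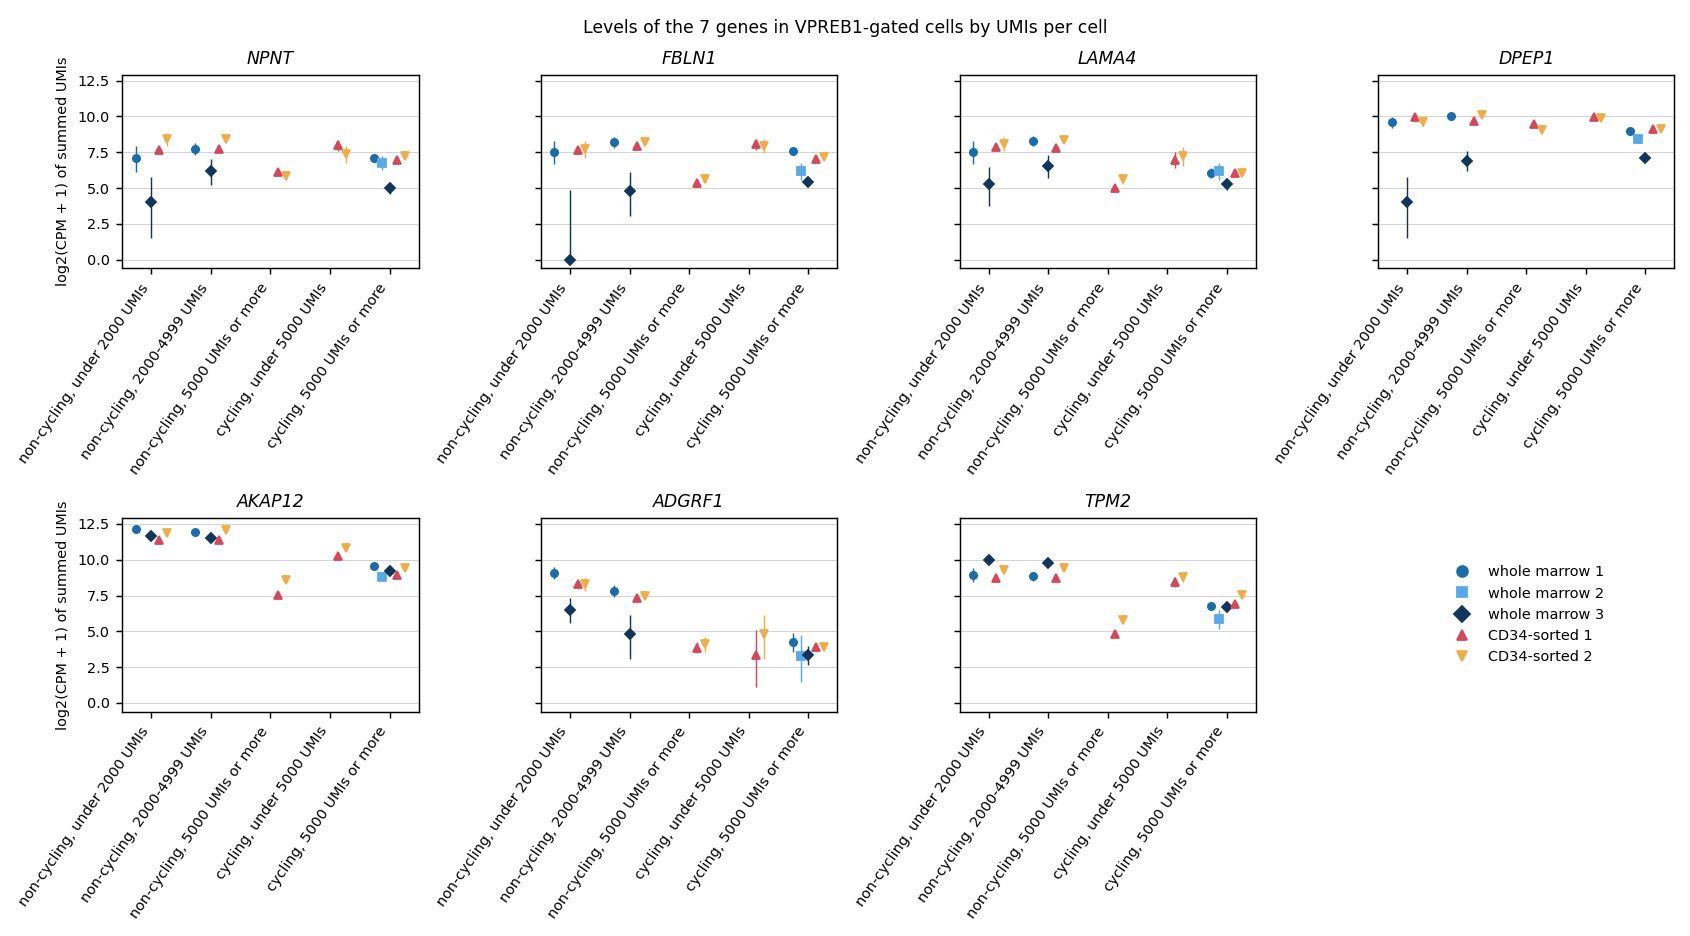
Level of each gene (log2 of CPM + 1, vertical axis) in VPREB1-gated cells split by cycling state and by UMIs per cell (horizontal axis), 1 point per library with at least 20 cells; bars are exact Poisson 95% intervals. In the sorted libraries non-cycling cells of 5000 UMIs or more lie below the shallower non-cycling cells for all 7 genes, with the smallest step for DPEP1, and ADGRF1 is low in both cycling classes.

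Restricting the contrast to cells of 5000 UMIs or more turned the direction of AKAP12, TPM2, LAMA4 and NPNT, but not of DPEP1 or ADGRF1. Among cells of 5000 UMIs or more, where the minimum of 20 cells per state left the 2 sorted libraries, 5 of the 7 genes were higher in cycling cells, where 15.1% of features were called higher: TPM2 by 1.83 ± 0.12 (adjusted p = 1.34e-13), FBLN1 by 1.51 ± 0.11 (adjusted p = 2.57e-12), AKAP12 by 0.96 ± 0.11 (adjusted p = 4.03e-05), NPNT by 0.93 ± 0.11 (adjusted p = 1.15e-07) and LAMA4 by 0.67 ± 0.15 (adjusted p = 0.00134). DPEP1 fell by 0.28 ± 0.08 (adjusted p = 0.0124), where 14.3% of features were called lower, and ADGRF1 was -0.19 ± 0.21 (adjusted p = 0.57). Among cells under 5000 UMIs of the same libraries, with 52 and 40 cycling cells, 4 genes were lower in cycling cells, where 6.79% of features were called lower. ADGRF1 fell by 3.66 ± 0.42 (adjusted p = 4.52e-16), AKAP12 by 1.22 ± 0.10 (adjusted p = 5.92e-33), LAMA4 by 1.02 ± 0.24 (adjusted p = 0.000344) and TPM2 by 0.50 ± 0.17 (adjusted p = 0.024). ADGRF1 was thus highest in shallow non-cycling cells, and the lower level of AKAP12, TPM2 and LAMA4 in cycling cells held over all cells and under 5000 UMIs but not above. Both depth-restricted fits left 1 residual degree of freedom, so their adjusted p-values rest more on variance shared over features than on replicate dogs. The part of depth in the difference over all cells was not tested beyond this split. In such sums, fewer cells with a transcript and less of it per cell cannot be told apart.

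**Figure D5:**
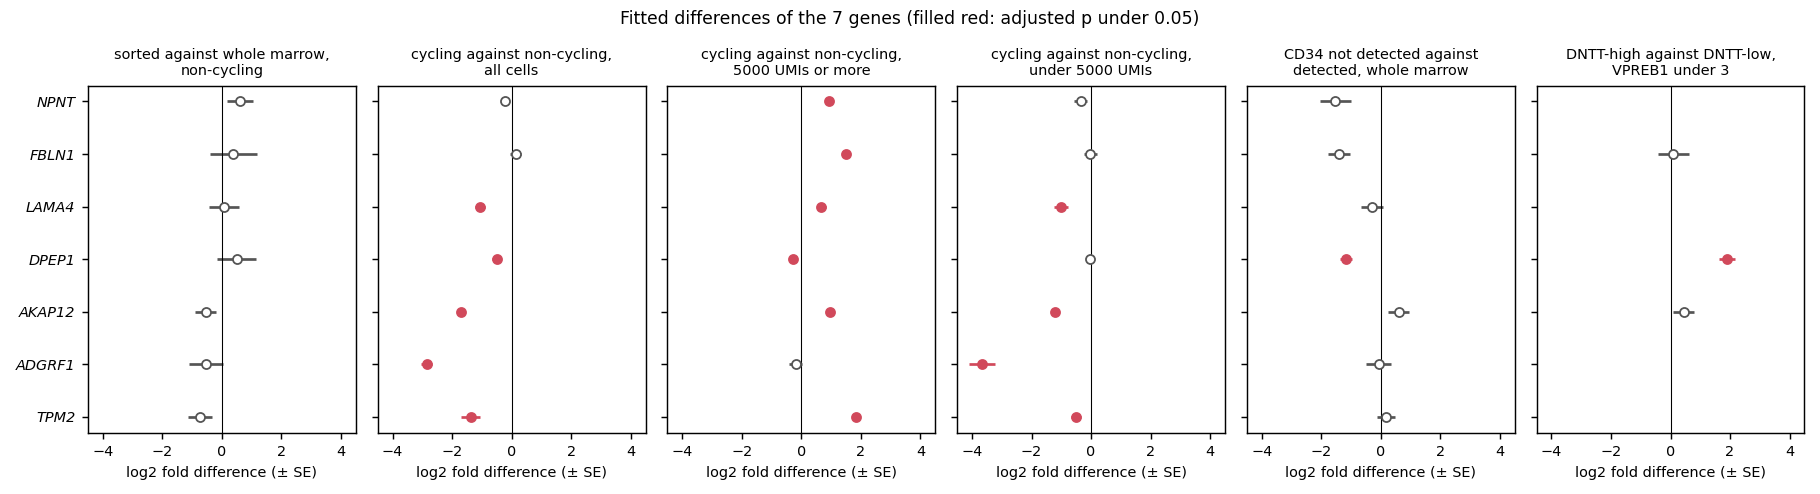
Log2 fold difference (horizontal axis, with its standard error) of each gene (vertical axis) in the 4 tests and in both depth classes of the cycling test; filled red points had an adjusted p under 0.05. The AKAP12, TPM2 and LAMA4 points lie left of 0 over all cells and under 5000 UMIs, and right of 0 at 5000 UMIs or more.

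The third test set VPREB1-gated cells without a CD34 UMI against those with one, within the 3 whole-marrow libraries. DPEP1 was the only 1 of the 7 genes called, where 0.932% of 4723 features were called and 0.339% were called lower. It was 508, 266 and 108 CPM in cells without CD34 of marrows 1 to 3 and 798, 536 and 354 CPM in cells with CD34, lower in 3 of 3 libraries, and it fell by 1.18 ± 0.20 (adjusted p = 0.0279). NPNT and FBLN1 were also lower in 3 of 3 libraries but did not pass the test (-1.53 ± 0.52, adjusted p = 0.33, and -1.40 ± 0.37, adjusted p = 0.15). AKAP12 was 1849, 1358 and 982.5 CPM without CD34 and 1099, 440.0 and 1201 CPM with it, a difference of 0.61 ± 0.36 (adjusted p = 0.59). Leaving out marrow 2 or 3 ended the DPEP1 call (adjusted p = 0.17 and 0.076), and without marrow 1 DPEP1, FBLN1 and NPNT were all called lower (adjusted p = 0.000137, 1.72e-05 and 9.81e-05), where 1.32% of features were. The same 3 genes were lower and AKAP12 higher (0.63, adjusted p = 0.047) with no low-count filter, where 1.47% of features were called, and DPEP1 and AKAP12 were called without marked doublets, where 1.31% were. In the sorted libraries, where this split was not tested, the order was the other way: DPEP1 was 782 and 657 CPM without CD34 and 599 and 579 CPM with it, NPNT 194 and 171 against 100.0 and 132 CPM, and FBLN1 222 and 189 against 93.1 and 101 CPM. In whole marrow, DPEP1 missed the threshold at 6 or more VPREB1 UMIs (adjusted p = 0.32) and without the library block (adjusted p = 0.79). Cells without a CD34 UMI were also shallower, with medians of 2007 to 2622.5 UMIs against 4181 to 12635, so a missed CD34 transcript and its absence cannot be told apart.

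The fourth test compared cells with and without DNTT below the VPREB1 gate. It used sorted cells with at least 4 UMIs of the stem-cell markers SULT1B1 and TFPI together and fewer than 3 of VPREB1, and set those with at least 3 DNTT UMIs against those with fewer, in 2 libraries with 1 residual degree of freedom. DPEP1 was 10.6 and 15.4 CPM in DNTT-high cells of sorted libraries 1 and 2 and 2.72 and 4.25 CPM in DNTT-low cells. It was higher by 1.89 ± 0.26 (adjusted p = 1.47e-10), where 3.69% of 9473 features were called and 2.4% were called higher. With cells of any VPREB1 UMI left out the difference was 1.504 ± 0.37 (adjusted p = 0.0036), where 1.34% were called higher. AKAP12 (0.45 ± 0.35, adjusted p = 0.71) and FBLN1 (0.10 ± 0.53, adjusted p = 0.98) did not pass, and the other 4 genes had too few UMIs to be tested, at 0.10 to 2.46 CPM. In sorted library 1 the DNTT-high level was not above that of GATA1-gated cells. GATA1-gated cells held DPEP1 at 12.4 and 10.7 CPM in sorted libraries 1 and 2, with a UMI in 8.21% and 7.6% of cells at medians of 16956 and 19817 UMIs. Of the GATA1-gated cells 12 and 15 were also VPREB1-gated, while such cells were left out of the DNTT test. Cells with no UMI of VPREB1, DNTT or MS4A1 held DPEP1 at 3.95 and 4.40 CPM in these libraries. DNTT-high cells had a DPEP1 UMI in 8.11% and 8.36% of cells at medians of 15020.5 and 17415.5 UMIs. Whether these shares are background or expression before VPREB1 was not tested. Among cells of at least 2000 UMIs, thinned to 2000, the shares were 1.69% and 2.58% of DNTT-high cells and 1.49% and 1.22% of GATA1-gated cells. DESeq2 did not call DPEP1 (adjusted p = 0.069), nor did the fit without the library block. The level was also low beside the VPREB1 gate: 48.7% and 55.4% of all DNTT-high cells of the gate passed the VPREB1 gate too, and those held DPEP1 at 621 and 776 CPM. With VPREB1-gated cells kept, 6 of the 7 genes were called higher, where 10.9% of features were. Keeping them put 562 and 816 VPREB1-gated cells among DNTT-high cells and 8 and 5 among DNTT-low cells. The genes were chosen for high levels in such cells, so these calls were set in advance and are not read as a result.

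Relatives and binding partners of the 7 proteins were read from lists, since a laminin alpha chain or an integrin ligand acts with partners. Of the laminin chains, LAMC1 and LAMB1, the gamma 1 and beta 1 chains that pair with LAMA4, stood at 31.5 and 11.1 CPM (mean of 2 sorted libraries) in non-cycling VPREB1-gated cells. ITGA8, the integrin chain known to bind nephronectin in mouse and named here after its values were seen, was at 0 in the 3 whole-marrow libraries and at 1.54 and 1.25 CPM after the sort. ITGA4 and ITGB1, which form a fibronectin and VCAM1 receptor, were at 239 and 109 CPM. Of the other lists, the fibulin FBLN5 was at 0.84 CPM, fibronectin (FN1) at 5.59 CPM, the dipeptidase DPEP2 at 18.6 CPM, the adhesion receptor ADGRG1 at 50.5 CPM and the kinase anchor AKAP9 at 247.5 CPM. TPM3, the broadly used tropomyosin, was at 289 CPM, and CNN2, an actin-binding calponin, at 471 CPM.

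None of the relatives was called in the sort, CD34 or DNTT tests, where 1.63%, 0.932% and 3.69% of all features were called. Many had too few UMIs to be tested. The sort test covered 4 of the 11 anchors in the files, 2 of the 20 integrins and relatives, and no fibulin, dipeptidase or matrix gene. With so few tested and such low shares, the lack of calls is not read as a result. In the cycling test 7 of them were lower and 1 was higher over all cells. LAMC1 fell by 1.16 ± 0.16 (adjusted p = 2.75e-05) and LAMB1 was higher by 1.04 ± 0.20 (adjusted p = 0.000763), so the 2 partner chains moved apart. DPEP2 fell by 1.79 ± 0.25 (adjusted p = 2.94e-05). Among the anchors AKAP13, AKAP9 and AKAP7 fell by 0.81, 0.51 and 0.50, and among the adhesion receptors ADGRG1 and ADGRE5 fell by 1.17 and 0.97. The lower calls were 3 of 5 tested anchors (11 in the files), 2 of 3 adhesion receptors (16) and the single tested dipeptidase (2), beside 19.1% of all features called lower. None of the 5 tested integrins or 5 tested tropomyosins and partners was called, and no other fibulin or matrix gene had enough UMIs to be tested. These lists were not tested as sets, and whether their directions also change with depth per cell was not tested.

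Because matrix genes are usually stromal, stromal and endothelial markers were counted in the same cells. Of 13 stromal markers, COL1A2, COL3A1, COL6A1, LUM, PDGFRA and PDGFRB had no UMI in the VPREB1 gates of any library, and the summed level of all 13 was 0 to 5.6 CPM. The endothelial markers CDH5, KDR, VWF, EMCN and CLDN5 were at 0 in non-cycling VPREB1-gated cells of every library. The endothelial sum of 9 markers was 20.6 to 78.4 CPM in both VPREB1 gates. VPREB1-gated cells with an NPNT, FBLN1 or LAMA4 UMI held endothelial markers, led by ESAM, at 31.9 and 37.8 CPM in sorted libraries 1 and 2. Those with none of the 3 held 55.3 and 66.7 CPM. Megakaryocyte markers moved with the matrix genes in whole marrow 1, at 101 CPM (ITGA2B 91.7 CPM) in 153 cells with one of the 3 and 0 in 71 cells without. In the other 4 libraries they were at 0 to 3.88 CPM with and 0 to 10.8 CPM without, and their part in the values of whole marrow 1 was not tested. Cycling cells of whole marrow 3 carried erythroid markers at 2510 CPM and neutrophil markers at 913 CPM, against 100.5 to 583 and 71.8 to 96.8 CPM in the other whole marrows, and the part of such RNA in the values of that library was not tested.

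Some UMIs of these genes in whole marrow came from cells of another kind. In whole marrow 2, 51.1% of all TPM2 UMIs (96) lay in 20 cells without VPREB1, DNTT or MS4A1, and 27.7% of the LAMA4 UMIs lay in 8 such cells. Of these cells 3, picked after their values were seen for having at least 2 of LAMA4, FBLN1 and TPM2, held 53 TPM2 and 11 LAMA4 UMIs. They also held 331 UMIs of 12 of the 13 stromal markers, 17200 CPM, and none of an endothelial marker. Whole marrows 1 and 3 each had 1 cell of this kind, with 6 and 9 stromal markers, and the sorted libraries had none.

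Over 32 sums of library and gate, the genes whose levels were most like each member's were sought among 7005 genes by Pearson's r of log2(CPM + 1). These sums share libraries and cells, and the likeness is a description. NPNT was most like LAMA4 (r = 0.98), DPEP1 and FBLN1, and FBLN1 was most like DPEP1 (r = 0.99), NPNT and ASNS, the asparagine synthetase gene. DPEP1 was most like FBLN1, ASNS (r = 0.98) and NPNT, and LAMA4 was most like NPNT, DPEP1 and the unnamed ENSCAFG00000002078. AKAP12 was most like ENSCAFG00000014139 (r = 0.98), VPREB1, which set the gates, and EBF1 (r = 0.97), a B-lineage transcription factor. TPM2 was most like AKAP12 (r = 0.97), EBF1 and ENSCAFG00000031808, and ADGRF1 was most like the recombinase genes RAG2 and RAG1 (both r = 0.95) with ENSCAFG00000002078. RAG2 levels shared with ADGRF1 the high value in the shallowest non-cycling cells (75.4 and 54.2 CPM in sorted libraries) and the low one in the deepest (11.01 and 6.92 CPM).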

How the data were processed

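The deposited files hold raw UMI counts per gene and barcode for 5 libraries (10x Genomics 3' chemistry, per the labels' protocols). They came from Cell Ranger: the file headers name version 7.0.1, whereas 7.1.0 stands in the submitters' processing notes, with the build CanFam 3.1. No source used here names an annotation release. No genome of that build was used, so no coordinates or sequences are given. In this format a UMI counts a transcript's 3' end, so CPM carries no length correction, and no result rests on comparing levels between genes. CPM was ranked between genes only to choose which relatives to name.

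The members and lists were chosen with earlier results of these data known. Counts were summed per library and gate (at least 20 cells) and fitted over all features with edgeR 4.0.16 (TMM, low-count filter, robust quasi-likelihood, adjusted p under 0.05). DESeq2 1.42.0 was an alternative. Cells are not replicates, and each library is 1 dog or 1 sort. Libraries 1 and 2 of the sort were paired with whole marrows 2 and 3 (the protocol names these marrows; the order of the pairs is inferred from the leading digits of the library names and is not stated outright). Over 2489 genes the differences of the 2 pairs correlated with r = 0.25. Standard errors are the log2 difference divided by the root of F. Doublets were scored per library with scanpy 1.11.5 (1036 marked) and kept, except in an alternative. The relatives named are those called and the 2 highest of each list by CPM in sorted non-cycling cells. On simulated counts with the sort test's sums, 23.4% of genes changed by a log2 fold of 1 and 92.9% by 2 were recovered, and 61.4% and 100% with those of the cycling test. The simulation gave every gene the same fixed dispersion and no differences between dogs. Its rates therefore do not give the recovery for genes that vary between libraries, such as FBLN1. Intervals are exact at 95%.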

Additional observations from a re-analysis of the deposited data

Results flagged for a closer look

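The cycling difference of TPM2 differed between sorted and whole-marrow libraries: the log2 difference was 1.45 higher (less negative) in the sorted libraries, by the interaction term of the fit over all features (SE 0.21, adjusted p = 0.000412). TPM2 was lower in cycling cells in 5 of 5 libraries. Its non-cycling level was 704 CPM in whole marrow 3 and 176 CPM in sorted library 1, while the cycling levels of these libraries were 110.2 and 128 CPM. The median depth of non-cycling cells was 1863 and 2386 UMIs there, and the part of depth in the difference was not tested.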

How the results depend on the processing

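The number of the 7 genes called in the sort test was 0, and it was 3 with the replicate block (dog, inferred pairing; 7.62% of all features called) and 0 to 0 without 1 library each (0.472% to 2.53%). With CD34-detected cells it was 2 (2.6%) and FBLN1 turned to -1.38, but there whole marrow 1 is the only unsorted library and is assumed to vary like the sorted ones. In the cycling test it was 5 (37.8%), 4 with no replicate block (16%) and 3 to 5 without 1 library each (28.4% to 38.1%). At 5000 UMIs or more NPNT (0.93), LAMA4 (0.67), AKAP12 (0.96) and TPM2 (1.83) reversed. In the CD34 test it was 1 (0.932%), 4 with no low-count filter (1.47%), 2 without marked doublets (2 libraries left, 1.31%), 0 with VPREB1 of at least 6 (2 libraries left, 0.127%), 0 with no replicate block (0.0212%) and 0 to 3 without 1 library each (0.0918% to 3.43%). In the DNTT test it was 1 (3.69%), 0 with DESeq2 (0.245%), 0 with no replicate block (0%) and 6 with VPREB1-gated cells kept (20.6%). Those 6 calls follow from the choice of the genes and are not read as a result. Without either sorted library the DPEP1 log2 ratio was 1.86 and 1.96, with no test. DESeq2 and the unfiltered fit tested other sets of features, and the median over all features in the sort test was -0.18 and 0.24 there (-0.27 in the cycling test with DESeq2). Of the values of single genes under all alternatives, 293 were counted as unchanged, 14 lost a call and 12 gained one. Another 5 changed sign with a call in either fit. The 293 include changes of sign with no call in either fit, and the untested single-library ratios of the DNTT test.

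Mean sorted non-cycling levels moved by over 1 SD when cells were thinned to 2000 or 1000 UMIs, which weights the remaining cells equally: NPNT from 149.7 to 227 and 247 CPM, FBLN1 from 129 to 198 and 197.6, LAMA4 from 133 to 202 and 230.4, DPEP1 from 760.0 to 895 and 899.7, AKAP12 from 1566 to 2601 and 2759, ADGRF1 from 89.4 to 121 and 185, and TPM2 from 246 to 397 and 442. Cells below the chosen depth were left out by the thinning. DPEP1 was 803 and 806 CPM and ADGRF1 93.0 and 92.8 without cells of several lineages or marked doublets, and genes per cell went from 3.58 to 2.88 at 2000 UMIs. The sort test at 5000 UMIs or more and the CD34 test at that depth or with MKI67 and TOP2A at 0 could not be fitted, for too few libraries. Whole marrow 2, with 31 non-cycling cells, has the widest intervals.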
